A study of Mus musculus with 14 samples.

Results

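Sat1, Sat2, Odc1, Oaz1, Oaz2, Azin1, Amd1, Srm, Sms and Smox are 10 genes of polyamine metabolism, followed here through single mesangial cells, which support the capillary tuft of the kidney glomerulus, contract and lay down matrix. They are 10 of the 35271 genes in the deposited table and were selected on the RPKM values of these same cells: Sat1 was among the genes most variable for their mean level, and the others were added as its pathway. The spread of Sat1 is therefore given as a description. The measurements were RNA-seq values of 14 cells, named GL_M_ and a number, from 1 wild type C57BL/6 male mouse of 8 weeks (the sample labels spell the strain C56BL/6). Glomeruli were pulled out on magnetic beads, dissociated with enzymes and processed on a Fluidigm C1, which lyses each captured cell in its own chamber. All cells belong to 1 group and 1 animal, no treatment was compared, and cells of 1 mouse are not replicates, so counts of cells and ranges are given without a test.

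Putrescine, spermidine and spermine are small positively charged molecules that bind RNA and DNA, and cells hold them within narrow limits. Ornithine decarboxylase (Odc1) makes putrescine, and spermidine synthase (Srm) and spermine synthase (Sms) extend it with aminopropyl groups supplied by S-adenosylmethionine decarboxylase (Amd1). The acetyltransferase encoded by Sat1 starts the way back, by tagging spermidine and spermine for export or oxidation, and spermine oxidase (Smox) turns spermine directly into spermidine. Antizymes (Oaz1, Oaz2) bind ornithine decarboxylase, send it to the proteasome and reduce polyamine uptake, while the antizyme inhibitor (Azin1) holds the antizymes back. Much of this control lies in translation and protein turnover, which transcript levels do not measure.

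The antizyme messages carry a short sequence on which that control turns. The ribosome meets a stop codon early in the reading frame and passes it by slipping forward by a base, more often when polyamines are plentiful. Both antizyme genes detected in these cells hold the site, shown here 5′ to 3′ on GRCm38 from GENCODE transcripts, with the last codon before the slip and the stop codon in capitals. The Oaz1 site is at chr10:80828283-80828309 and the Oaz2 site at chr9:65686260-65686286, both on the plus strand.
Oaz1: cggtggtgcTCCTGAtgtccctcaccc
Oaz2: ctgtggtgcTCCTGAtgcccctcaccc
The windows differ at 2 of 27 bases, both outside the capitals. They lie unbroken in 2 of 7 annotated Oaz1 transcripts and 3 of 7 of Oaz2. The data count messages and do not show how often the slip occurred.

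Levels are RPKM, read numbers divided by gene length and by the cell's read total, which allows genes of different length to be set side by side. A gene is called present at an RPKM of at least 10. Sat1 and Oaz1 were each present in most cells, Oaz2 in 7, and the other 7 genes in 3 cells or fewer. Of the 10 genes, 3 were present in at least 7 of 14 cells, while 3.08% of all genes in the table were. At 10 or more in at least 1 cell were 9 of the 10, against 22.3% of all genes. Among genes present in some cell, 13.8% were present in at least 7 cells. In all, 39 of the 140 values of the 10 genes were at 10 or more and 63 were 0. Of all 35271 genes, a cell had 1268 to 3345 at 10 or more and 5048 to 8577 above 0. Of the 140 values of the 10 genes, another 28 lay above 0 but below 1, and 10 from 1 to below 10.

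**Figure D1:**
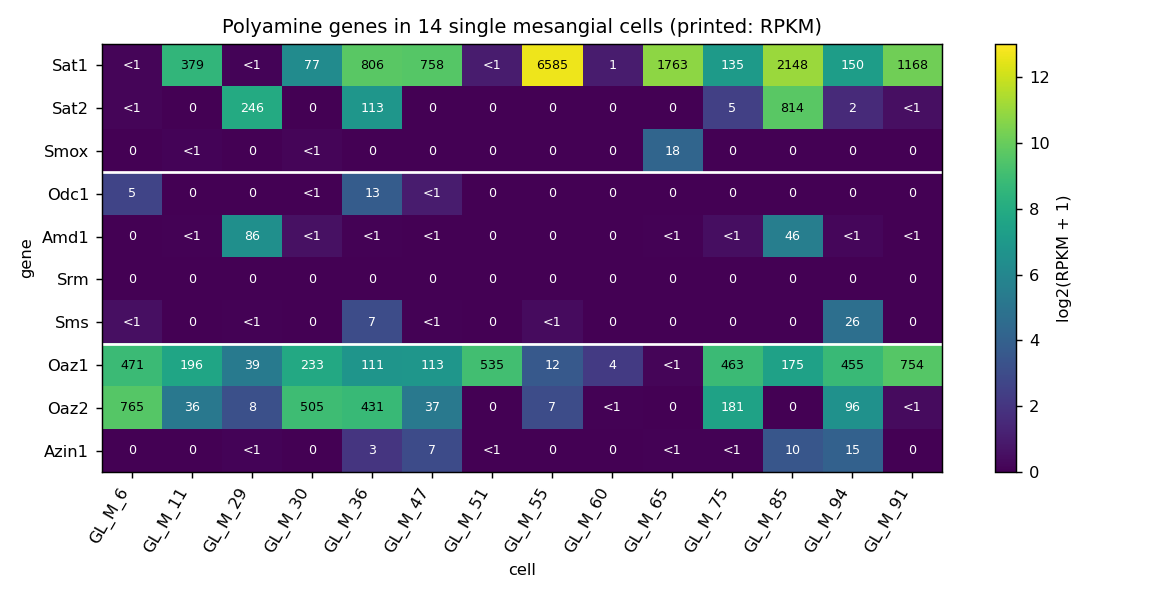
RPKM of the 10 polyamine genes in each of the 14 cells, on a log2(RPKM + 1) color scale, with genes in rows and cells in columns. Sat1 and Oaz1 run across most columns, Oaz2 fills 7 of them, and the biosynthetic genes appear as isolated cells, with Srm at 0 throughout.

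The cells' read totals ran from 6.60 to 23.8 M reads, recovered from the steps of the RPKM values, and the number of genes at 10 or more from 1268 to 3345. At these totals 3 reads of Sat1 equal an RPKM of 0.122 to 0.439. Of 9 mesangial markers, 6 to 8 were at 10 or more in each cell, with Tbx18 at 0 in all. GL_M_30 also had 9 of 10 endothelial markers at 10 or more (summed RPKM 4116), and GL_M_55 had 5 of 7 podocyte markers (2178). In the other cells the endothelial sum was 8.23 to 1224 and the podocyte sum 0.427 to 512. Smooth muscle sums stayed at or below 3.45 and tubule sums at or below 0.0232. Of the 2 renin cell markers, Ren1 was at 0 in every cell. GL_M_6 had 1 of the 2 at 10 or more (summed RPKM 28.1), and in the other cells the renin cell sum was at most 3.04. The cells also fell into sets that shared low values. Genes at 100 or more in GL_M_85 and below 10 in every other cell numbered 58, and all 58 were above 0 in GL_M_75 and in GL_M_94 and 52 in GL_M_91. The same held for GL_M_51, GL_M_55, GL_M_60 and GL_M_65, where 63.3% to 97.8% of genes high in 1 of the set alone were above 0 in another of the set. Outside that set the share was 8.70% to 63.0%. For GL_M_6, GL_M_11 and GL_M_29 it was 42.3% to 68.2% within the set and 10.6% to 51.5% outside it, ranges that overlapped.

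Sat1, the spermidine and spermine acetyltransferase, was above 0 in all 14 cells but at very unequal levels. It was highest in GL_M_55, at an RPKM of 6585 (51805 reads), followed by 2148 in GL_M_85, 1763 in GL_M_65 and 1168 in GL_M_91. It stood at 806 in GL_M_36, 758 in GL_M_47 and 379 in GL_M_11, and then at 150 in GL_M_94, 135 in GL_M_75 and 76.7 in GL_M_30. The remaining 4 cells were at or near a few reads, with 1.01 in GL_M_60 (25 reads), 0.963 in GL_M_51 (19 reads), 0.120 in GL_M_6 (1 read) and 0.104 in GL_M_29 (1 read). No cell lay between 1.01 and 76.7. The median was 264, and 10 of 14 cells were at 10 or more (71.4%, exact 95% Clopper-Pearson interval 41.9% to 91.6%, which covers only the drawing of 14 cells of 1 mouse). Only 1.29% of all genes were at 10 or more in at least 10 cells, and Sat1 and Oaz1 were the members among them. In GL_M_55 Sat1 was the 6th highest of 5558 genes above 0, in GL_M_85 the 23rd, in GL_M_65 the 42nd, in GL_M_36 the 87th and in GL_M_47 the 95th.

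In GL_M_51 and GL_M_60 the Sat1 values were of the size of the low values that these cells shared with GL_M_55. Sat1 in GL_M_51 was 0.0146% of its level in GL_M_55, and the 51 genes high in GL_M_55 alone and above 0 in GL_M_51 had a median of 0.0150%. In GL_M_60 it was 0.0154% of the GL_M_55 level, against a median of 0.00957% over 41 such genes and a highest value of 0.252%. The Sat1 values of GL_M_6 and GL_M_29 were put at 1 read each, the smallest number that the fit of reads allows. These were 0.0316% and 0.0276% of the Sat1 level in GL_M_11. The 31 genes high in GL_M_11 alone and above 0 in GL_M_6 had a median of 0.0348%, and the 31 such genes in GL_M_29 had 0.0234%. Sat1 in GL_M_75 and GL_M_94 was 6.28% and 6.97% of its level in GL_M_85. The genes high in 1 cell alone are below 10 elsewhere by definition, so they set no scale for values of this size. The share that carry-over of reads or RNA between cells had in the low values was not tested.

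Sat1 (ENSMUSG00000025283) lies on the X chromosome of GRCm38 from 155213132 to 155216449 on the minus strand. GENCODE lists 7 transcripts for it, 2 protein-coding, 1 marked for nonsense-mediated decay and 4 with a retained intron. Skipping or inclusion of an exon that leads to decay of the message is a known control of Sat1, and the gene-level values do not tell these transcripts apart. Of the 50-base stretches in its transcripts, 2.72% also occur in transcripts of other genes.

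The spread that led to the choice of Sat1 was an SD of 4.43 in log2(RPKM + 1), around a mean of 6.82. Genes of like mean level had a median SD of 3.56. Ranked by the excess over the median of the bin, not scaled to the spread within it, Sat1 was the 22nd of the 5008 genes that averaged 10 or more. It was also the 22nd of the 399 genes in its bin, at percentile 94.5, so all genes ahead of it came from that bin. Its excess of 0.877 was close to those of its neighbours in the order. Gabarap, Cdk2ap2 and Akr1a1 stood just before it, at 0.883, 0.881 and 0.878, and Tram1, St13 and Usp14 just after, at 0.877, 0.874 and 0.873. Of the other polyamine genes with a mean of at least 10, Oaz2 was the 1316th, with an excess of 0.17, and Sat2 the 2089th, with 0.07. Oaz1 was the 4745th, and its SD of 2.84 was below the median of its bin by 0.72.

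**Figure D2:**
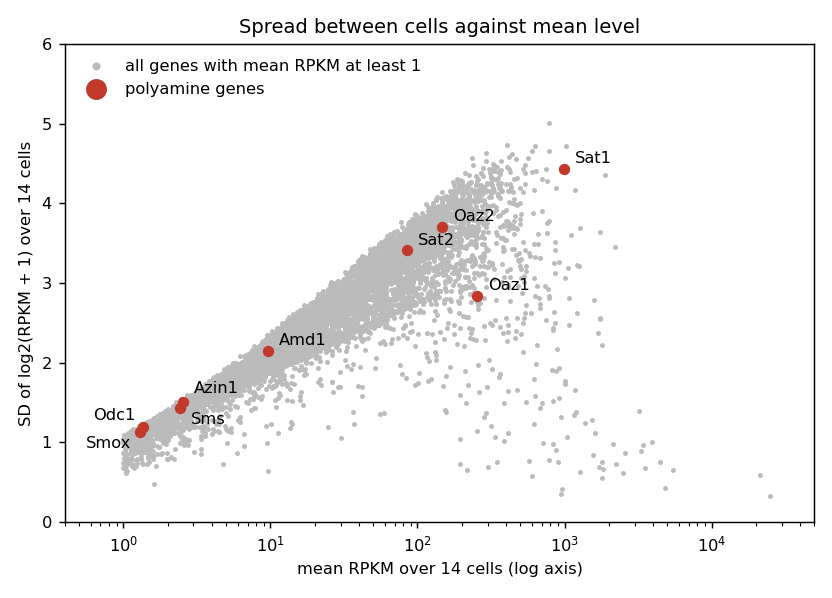
SD over 14 cells of log2(RPKM + 1) against the mean RPKM (log axis) for the 7976 genes averaging 1 or more (grey) and for the polyamine genes among them (red). Sat1, at an SD of 4.43, lies near the upper edge for its mean, and Oaz1, at 2.84, below most genes of its bin of mean level.

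Sat2, which encodes a relative of Sat1 with another preferred substrate, and Smox gave a different picture on the catabolic side. Sat2 was at 814 in GL_M_85, 246 in GL_M_29 and 113 in GL_M_36, below 5 in GL_M_75, GL_M_94, GL_M_91 and GL_M_6, and at 0 in the other 7 cells. GL_M_85 and GL_M_36 were also among the cells with high Sat1, while GL_M_29 had a single Sat1 read. The low Sat2 values of 4.57 in GL_M_75, 1.97 in GL_M_94 and 0.425 in GL_M_91 were 0.561%, 0.241% and 0.0522% of the GL_M_85 level. The medians of genes high in GL_M_85 alone in those cells were 0.535%, 0.163% and 0.0426%. Smox was at 18.0 in GL_M_65 (209 reads), at 1 and 2 reads in GL_M_11 and GL_M_30, and at 0 in the other 11. None of the sequence of Sat2 or Smox was shared with other genes at 50 bases. Sat2 (ENSMUSG00000069835) is on chromosome 11 from 69622024 to 69623870, plus strand, and Smox (ENSMUSG00000027333) on chromosome 2 from 131491496 to 131525922, plus.

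The biosynthetic enzymes were found in few cells. Odc1, the enzyme that commits ornithine to the pathway, had an RPKM of 12.8 in GL_M_36 (436 reads), 5.45 in GL_M_6 (112 reads), 0.972 in GL_M_47 (31 reads) and 0.0308 in GL_M_30 (1 read). It was at 0 in the other 10 cells. Amd1 was at 86.4 in GL_M_29 (2561 reads) and 46.3 in GL_M_85 (1523 reads), and at 0.514 or less in the rest. Those 2 cells also had Sat2, and over 14 cells Amd1 and Sat2 had a Pearson r of 0.83 in log2(RPKM + 1), the highest among the 45 pairs of the 10 genes (pairs with Srm have no r) and picked for that. Part of the shared pattern lay in low values. Amd1 in GL_M_75, GL_M_94 and GL_M_91 was 0.816%, 0.351% and 0.0759% of its GL_M_85 level, beside medians of 0.535%, 0.163% and 0.0426% for genes high in GL_M_85 alone. Amd1 shares 78.1% of its 50-base stretches with other genes, among them Amd2 and several Amd pseudogenes. Its reads, and those of Amd2, could therefore be left out or assigned to another copy in the authors' counting. Amd2 itself was at 0.172 at most.

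Sms, the spermine synthase, was at 26.2 in GL_M_94 (373 reads) and 7.15 in GL_M_36 (178 reads), at 0.467 or less in 4 cells and at 0 in 8. Srm, the spermidine synthase, was listed at 0 in all 14 cells. Of all genes, 57.1% were at 0 throughout, and 0 of 14 allows a share of cells with a read of up to 23.2%. A value of 0 can be a missed transcript or reads not assigned. Ahcy, which clears the S-adenosylhomocysteine left by methylation reactions, was also 0 in all 14, and 68.7% of its 50-base stretches occur in other genes too. Odc1 was at 10 or more in 1 cell, Amd1 in 2, Sms in 1 and Srm in 0, and no cell had 2 of the 4 biosynthetic genes at that level. With so few cells for each gene, this is no result about their overlap.

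Odc1 (ENSMUSG00000011179) is on chromosome 12 from 17544794 to 17551505, plus strand, and Amd1 (ENSMUSG00000075232) on chromosome 10 from 40287458 to 40302186, minus. Srm (ENSMUSG00000006442) is on chromosome 4 from 148591503 to 148594993, plus, and Sms (ENSMUSG00000071708) on X from 157443855 to 157492287, minus. Odc1 shares 24.3% of its sequence at 50 bases, Sms 17.5% and Srm 2.01%.

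The antizymes were the most regularly found of the regulators. Oaz1 was at 754 in GL_M_91, 535 in GL_M_51, 471 in GL_M_6, 463 in GL_M_75 and 455 in GL_M_94. It was between 111 and 233 in GL_M_30, GL_M_11, GL_M_85, GL_M_47 and GL_M_36, at 39.0 in GL_M_29 and at 11.6 in GL_M_55. The remaining 2 cells were GL_M_60, at 3.57 (87 reads), and GL_M_65, at 0.114 (1 read). It was thus at 10 or more in 12 of 14 cells (85.7%, interval 57.2% to 98.2%), with a median of 186. The value in GL_M_60 was 0.669% of that in GL_M_51, above the highest of 38 genes that were high in GL_M_51 alone and above 0 in GL_M_60, 0.0774%. The single read in GL_M_65 was 0.0212%, against a median of 0.0369%. Oaz1 shares 21.0% of its 50-base stretches, with the pseudogene Oaz1-ps among the sharing genes.

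Oaz2, the second antizyme, varied over a wider range. It was at 765 in GL_M_6, 505 in GL_M_30, 431 in GL_M_36, 181 in GL_M_75, 95.8 in GL_M_94, 36.7 in GL_M_47 and 36.5 in GL_M_11. It was at 8.12 in GL_M_29 and 7.09 in GL_M_55, below 1 in GL_M_91 and GL_M_60, and at 0 in GL_M_51, GL_M_65 and GL_M_85. Oaz1 was above Oaz2 in 11 of 14 cells, and the 3 exceptions were GL_M_6, GL_M_30 and GL_M_36. GL_M_60 and GL_M_65 had neither antizyme at 10 or more. These 2 cells differed in Sat1, at 1.01 and 1763.

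Azin1, the antizyme inhibitor, was at 15.4 in GL_M_94 (280 reads) and 10.1 in GL_M_85 (247 reads). It was lower in GL_M_47, at 6.73, and in GL_M_36, at 3.01, then below 0.1 in 4 cells and at 0 in 6. Oaz1 was higher in each of those 4 leading cells, with 113 against 6.73 in GL_M_47. Oaz1 (ENSMUSG00000035242) is on chromosome 10 from 80826656 to 80829290, plus strand, Oaz2 (ENSMUSG00000040652) on chromosome 9 from 65668001 to 65690300, plus, and Azin1 (ENSMUSG00000037458) on chromosome 15 from 38487427 to 38519266, minus. All 10 genes are annotated as protein-coding.

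Within single cells, Sat1 and Oaz1 were compared with Odc1, the entry enzyme. Sat1 was above Odc1 in 13 of 14 cells, with GL_M_6 the exception, and Oaz1 was above Odc1 in 14 of 14. Counting only differences of at least 2-fold with the higher gene at 10 or more left 10 and 12 cells. Of the other catabolic genes, Sat2 was higher than Odc1 in 6 cells and lower in 3, and Smox was higher in 3 and lower in 3. Ordered by median RPKM, Sat1 (264) and Oaz1 (186) came first and were not separated, since Sat1 was above Oaz1 in 7 cells and below it in the other 7. Oaz2 (22.3) followed, lower than Oaz1 in 11 cells, and above Sat2 in 9 and below it in 3. The medians of the other genes were all below 0.1, and no order among them is given.

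The balance of Sat1 and Oaz1 differed widely between cells. The log2 ratio of Sat1 to Oaz1 ran from -11.94 in GL_M_6 to 13.92 in GL_M_65, both set by a value of 1 read. Pearson's r between them over the 14 cells was -0.13 and Spearman's rho -0.28. For Sat1 and Oaz2, r was -0.08 and rho -0.33, and for the 2 antizymes r was 0.43 and rho 0.28. The points are cells of 1 mouse that differ in depth and in the number of genes found, and these values describe them only. GL_M_55 combined the highest Sat1 with an Oaz1 of 11.6, while GL_M_91 had 1168 of Sat1 and 754 of Oaz1.

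**Figure D3:**
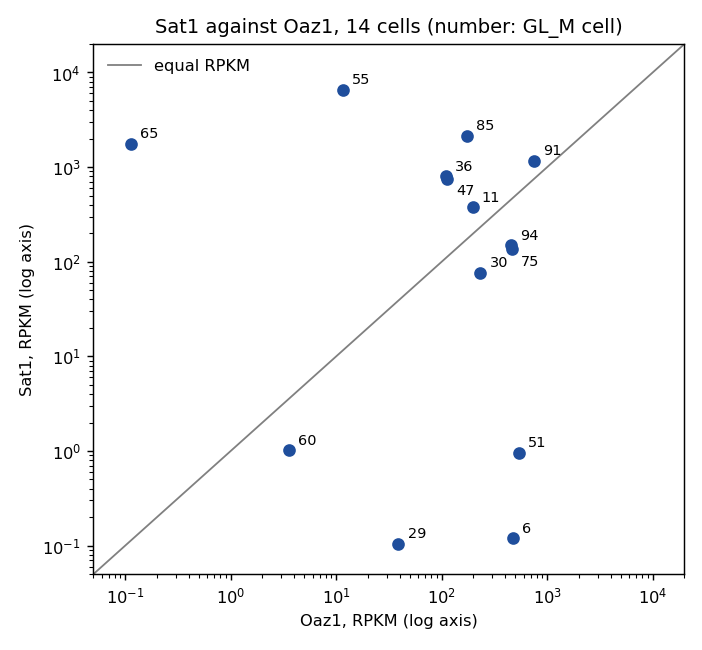
RPKM of Sat1 against RPKM of Oaz1 in the 14 cells, both on log axes, with a line at equal values and each point marked with its cell number. The 7 cells above the line include GL_M_65 and GL_M_55 at low Oaz1, and the 7 below it include 4 cells with Sat1 at about 1 or less.

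A cell had a median of 3 of the 10 genes at 10 or more, beside a median of 1757 of all 35271 genes. GL_M_36, GL_M_85 and GL_M_94 had 5 each, in different combinations. GL_M_36 had Sat1, Sat2, Odc1, Oaz1 and Oaz2, GL_M_85 had Sat1, Sat2, Amd1, Oaz1 and Azin1, and GL_M_94 had Sat1, Sms, Oaz1, Oaz2 and Azin1. Sat1 and Oaz1 were the genes present in all 3 of these cells. GL_M_51 had Oaz1 alone and GL_M_60 none. The count of polyamine genes went with the number of all genes at 10 or more in a cell (r 0.54, rho 0.59, n = 14). For the same count r was 0.55 with the summed endothelial markers (rho 0.46), 0.50 with the leukocyte markers (rho 0.48) and -0.46 with the log2 read total (rho -0.32). The Sat1 level and the number of genes at 10 or more had an r of 0.27 and a rho of 0.01. Between Sat1 and the log2 read total r was -0.28 (rho -0.17). Against the summed markers, r and rho of Sat1 differed in sign for mesangial genes (-0.13 and 0.17) and endothelial genes (0.15 and -0.34). They were -0.10 and -0.19 for podocyte genes and 0.29 and 0.22 for leukocyte genes. The highest leukocyte sum was 923, in GL_M_85, and it came from 1 of 5 markers at 10 or more. The part of other cell types, depth and genes found in the Sat1 levels and in the count was not tested. GL_M_55, with its podocyte transcripts, had the highest Sat1 level, and 8 of the 12 cells other than GL_M_30 and GL_M_55 had Sat1 at 10 or more.

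Beyond the 10 genes, 5 lists with 42 genes of the surrounding pathways were examined, and 19 of the 42 were at 10 or more in some cell (22.3% of all genes), 1 of them in at least 7 cells (3.08% of all genes), while 14 were at 0 in all (57.1% of all genes). The gene present in 7 cells was Nfe2l2, a stress-response transcription factor known to act on Sat1 transcription, with 819 in GL_M_6, 259 in GL_M_47, 224 in GL_M_65, 134 in GL_M_51 and 112 in GL_M_94. It was at 25.5 in GL_M_36 and 24.7 in GL_M_30 and below 6 in the others. Its highest cell, GL_M_6, had a single read of Sat1, and the highest cell of Sat1, GL_M_55, had a single read of Nfe2l2. Over the 14 cells r between them was -0.14. Of the 6 transcription factors listed, 5 were at 10 or more in some cell, and Myc, an activator of Odc1, was at 0.0443 at most. Single lists hold few genes, and their counts, set against the same shares of 22.3% and 57.1% of all genes, are no result about a list.

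Of 10 further enzymes and regulators, 2 were at 10 or more in some cell and 5 were at 0 throughout, both near the shares of all genes. The latter were Oaz3, Paox, Satl1, Arg2 and Agmat, of which Paox encodes the oxidase that acts on the products of the Sat1 enzyme. The list genes named here other than Nfe2l2, namely Ahcy, Amd2, Myc, the genes at 0 and those from Arg1 to Eif5a, were picked after their values were seen. Arg1, the arginase that makes ornithine, was at 1402 in GL_M_85. It was at 7.29 in GL_M_75, 1.68 in GL_M_94 and 0.688 in GL_M_91, which were 0.520%, 0.120% and 0.0491% of that level and close to the medians of 0.535%, 0.163% and 0.0426% for genes high in GL_M_85 alone. It was at 0.0532 in GL_M_30 and 0 in the other 9 cells. GL_M_85 was also the highest cell for Sat2 and for Dohh, an enzyme of hypusine formation, at 300.0.

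In the transport list 4 of 13 genes were at 10 or more in some cell and 6 were at 0 in all. Slc18b1, a vesicular polyamine transporter, was at 10 or more in 5 cells, with 367 in GL_M_65 and 36.4 in GL_M_55, and Atp13a3, a polyamine-transporting ATPase, reached 310 in GL_M_30. Of the 9 genes of the methionine cycle and salvage, 5 were at 10 or more in some cell. Mtap, which recycles the by-product of the aminopropyl transfers, was at 10 or more in 5 cells with up to 514 in GL_M_94, Mat2a in 5 with up to 131 in GL_M_94 and Mat2b in 4 with up to 1103 in GL_M_6. Of 4 hypusine genes, 3 were at 10 or more in some cell. Eif5a, the translation factor that carries the spermidine-derived hypusine residue, was at 10 or more in 6 cells, with 716 in GL_M_94, 628 in GL_M_91, 444 in GL_M_51, 318 in GL_M_30, 265 in GL_M_29 and 89.7 in GL_M_6. It was below 1 in the other 8, among them the 3 cells with the most Sat1. Other cells went the other way: GL_M_91 had 628 with Sat1 at 1168, and GL_M_60 had 0.111 with Sat1 at 1.01. Between Eif5a and Sat1 r was -0.46.

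**Figure D4:**
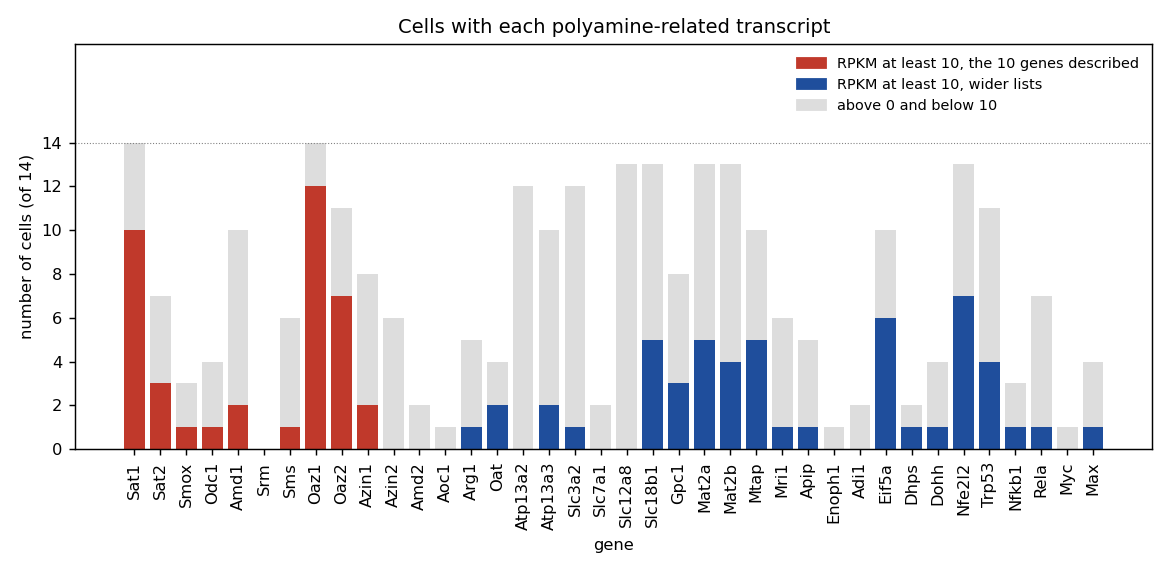
Number of cells (of 14) with each gene at an RPKM of at least 10 (colored) or above 0 and below 10 (grey), for the 10 polyamine genes (red) and the genes of the wider lists above 0 in some cell (blue). Oaz1 (12 cells) and Sat1 (10) have the tallest colored bars, followed by Oaz2 and Nfe2l2 (7 each).

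The genes whose levels ran most like Sat1 were sought among 2503 genes at 10 or more in at least 4 cells, where the median r with Sat1 was 0.08, the 1st percentile -0.56 and the 99th 0.65. Gnaq, the alpha subunit of a G protein that couples receptors to phospholipase C, had the highest r, 0.81 (rho 0.92). It was at 746 in GL_M_55, 475 in GL_M_85, 434 in GL_M_91, 156 in GL_M_36 and 116 in GL_M_47. It was below 6 in the others, among them GL_M_65, at 3.74 with Sat1 at 1763. Dynlt1c followed with 0.79, Ndufb6 with 0.77, Mrvi1 with 0.76 and Ralb, a small GTPase, with 0.73. Dynlt1c shares 88.9% of its 50-base stretches with other genes. For Ndufb6 the share is 31.6%, all of it as the reverse complement, and 39.0% of its exon bases overlap exons of Smim27. Ralb, with a rho of 0.50, was on the same side of 10 as Sat1 in 13 of 14 cells. GL_M_91 was the exception, where Ralb was at 0.299 and Sat1 at 1168. The same count was 9 for Gnaq, 10 for Dynlt1c, 11 for Ndufb6 and 11 for Mrvi1. Without single cells in turn, r of Gnaq stayed between 0.78 and 0.87 and that of Ralb between 0.67 and 0.89. Both had been picked for their r over all cells.

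The lowest r were those of BC031181 (-0.86, rho -0.40), Tcf25 (-0.78) and Serf2 (-0.74). BC031181 was at 375 in GL_M_60, 98.8 in GL_M_6, 47.4 in GL_M_29 and 40.7 in GL_M_51, the 4 cells with Sat1 at about 1 or less, and at 3.49 or below in the 10 cells with Sat1 at 76.7 or more. It was at 10 or more in only those 4 cells, the fewest the search allowed, and was picked for its r. That it was on the same side of 10 as Sat1 in 0 of 14 cells follows from this and lends no support. Leaving out single cells moved its r from -0.89 to -0.83, computed for the gene already picked. Tcf25 was highest in GL_M_60, at 1693, and lowest in GL_M_36, at 0.210. With 2503 genes ranked over 14 cells, values of this size stand at the ends of a wide distribution, and the cells share an animal and, in sets, low values.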

How the data were processed

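The deposited values were RPKM per Ensembl gene, made by the authors. The submitters' processing notes name TopHat2 2.0.12, HTSeq 0.6.1 and mm10. Not given in the sources used here are the annotation release, gene lengths, multi-mapping rule and cell filters. Of 35271 genes, 34488 matched a GENCODE M21 symbol, and coordinates are GENCODE's on GRCm38, the assembly mm10 denotes.

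Read totals and reads per gene were recovered from the whole-number steps of the RPKM values. At genes with 1 annotated transcript, 88.0% to 92.1% of low values per cell came within 0.05 of a whole read. On simulated reads of 14953 genes, 14 of 14 totals came back within 0.1 percent. The simulation used the same gene lengths as the recovery, so it could not test whether the authors' lengths matched them. That check did not cover reads per gene, which also rest on a gene length fitted to the values. The fit took the smallest read number for a gene's lowest value that made its low values whole. Single reads are therefore partly set by the fit. For Odc1 and Smox only 2 values below 100 reads entered the fit. Among the members, only the fitted length of Amd1 matched an annotated transcript, so read numbers per gene are estimates. cDNA was amplified and no molecular identifiers are named, so limits cover counting error only. Levels for SD and r were log2(RPKM + 1). SD was compared with the median of 20 bins of mean RPKM, over 7976 genes with a mean of at least 1. Sharing was the share of 50-base stretches found, as such or as the reverse complement, in transcripts of other GENCODE genes. Named were all 10 members, wider-list genes at 10 or more in at least 7 cells, the 5 highest and 3 lowest r with Sat1, and the 3 genes on each side of it in variability. Other genes of the wider lists were named after their values were seen. The members and lists were chosen with earlier results of these data known. No 2 cells had identical columns (91 pairs). Python 3.11.15, pandas 2.3.3, numpy 2.4.6 and SciPy 1.17.1 were used. Alternatives changed the RPKM limit, the pseudocount, the scaling, the measure of spread or likeness, the filter on level, and the cells included.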

Additional observations from a re-analysis of the deposited data

How the results depend on the processing

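All values rest on 14 cells of 1 mouse, and a gene at 0 may have been missed. Counts of cells and genes at the RPKM limit, and of cells with Sat1 or Oaz1 above Odc1, stayed within 1.5 times under every alternative run. Sat1 was at the limit in 11 cells at RPKM 1 and 9 at RPKM 100. The percentile of the Sat1 SD among the genes of its bin, 94.5, became 85.2 with a pseudocount of 0.1, 97.2 with 10, 86.5 with the coefficient of variation and 96.8 with no filter on level. It ran from 78.8 (without GL_M_6) to 98.5 (without GL_M_11) when 1 cell was left out. Of the 5 genes most like Sat1, 3 stayed among the first 5 with Spearman's rho, 3 with a pseudocount of 10, 3 among genes at 10 or more in at least 7 cells and 1 without GL_M_30 and GL_M_55. Leaving out 1 cell kept 1 to 5 of them. The cause was not tested. No paired analysis was possible because all cells form 1 group.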
